A study of Homo sapiens with 8 samples.

Results

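Pancreatic ductal adenocarcinoma is sorted by gene expression into a classical subtype, with epithelial, gastric and mucous genes, and a basal-like one. A group of 10 genes named as markers of the classical subtype was followed in Panc 10.05, an established human pancreatic adenocarcinoma cell line. The members were taken by name: AGR2, CTSE, FXYD3, TMEM45B, SDR16C5, GPRC5A, FOXQ1, TOX3, PLS1 and CAPN8. Each name matched 1 row, which gave 10 of the 58870 genes in the table, and 9 of them had enough counts to be tested. The series compared 4 libraries of control cells with 4 of cells carrying an ELAPOR1 transgene, all from Panc 10.05. The labels say neither what the control cells carried nor how the transgene was delivered, which promoter drove it or whether the cells were clonal. Nothing states that the replicates were separate cultures, so the p-values set group differences against the spread between these libraries, which may be technical. The title of the series concerns induction of this subtype by ELAPOR1.

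Control libraries held 16558600 to 18128757 counts and ELAPOR1 libraries 13765509 to 17258166. ELAPOR1, listed as KIAA1324, had 1 to 4 counts in each control library and 5910 to 7368 in each ELAPOR1 library, so all 8 libraries matched their labels. Levels are in CPM, counts per 1e6 after TMM scaling, and differences are log2 fold changes of ELAPOR1 against control. A gene was called at an edgeR adjusted p-value under 0.05. All 10 ductal and epithelial markers examined were measurable, with EPCAM at 634 ± 10.6 CPM in the controls and 623 ± 16.2 with the transgene (SD, n = 4 each). The acinar markers summed to 0 to 2 counts in any library, and INS, DCN, COL1A2, CDH5 and CD3E were at 0 counts in all 8. The library totals of the other marker lists were 9 to 22 counts for endocrine, 42 to 79 for fibroblast and 8 to 35 for endothelial genes. The 6 endothelial markers, with CDH5 and CLDN5 at 0, summed to 1.65 to 2.13 CPM in control and 0.576 to 0.998 in ELAPOR1 libraries, and the 8 immune and blood markers, with CD3E, CD3D and MS4A1 at 0, to 84.7 to 91.1 and 73.7 to 79.6 CPM. VWF (1.69 ± 0.177 to 0.761 ± 0.137 CPM) and HBB (2.14 ± 0.132 to 0.408 ± 0.163 CPM, with 3 to 10 counts in ELAPOR1 libraries) fell, as did CD68 (84.4 ± 2.49 to 75.7 ± 2.61 CPM), a lysosomal protein gene, and their part in the results was not tested. HBB had enough counts for a test only through the control libraries, where it was higher.

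The label of the group, surface and secreted markers, covers only some of its members. AGR2, a disulfide isomerase of the endoplasmic reticulum that mucin-making cells need, is also secreted, and CTSE is an aspartic protease of the endosomal compartment known from gastric mucosa. FXYD3, a small single-span regulator of ion transport, TMEM45B, a multi-span protein, and GPRC5A, an orphan receptor induced by retinoic acid, are membrane proteins. SDR16C5 is a retinol dehydrogenase of the endoplasmic reticulum. FOXQ1, a forkhead factor, and TOX3, an HMG-box protein, act in the nucleus. PLS1 (plastin 1) bundles actin in microvilli and CAPN8 is a calcium-dependent protease known from the stomach, both cytosolic.

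Of the 10 members, 5 fell (AGR2, FXYD3, TMEM45B, GPRC5A and CAPN8) and 2 rose (CTSE and FOXQ1) in ELAPOR1 libraries. SDR16C5 and PLS1 were tested and not called, and TOX3 had no count. Across all 13860 genes tested, 44.7% were called, 22.1% lower and 22.6% higher, so a call by itself was common in this comparison. The CPM ranges of the groups did not overlap for the same 7 members, and 39.2% of all genes tested had no overlap. Against a 1.5-fold change (edgeR's glmTreat), only AGR2 was called (adjusted p = 0.00684), as were 1.55% of all genes tested. AGR2 had 0 to 6 counts in ELAPOR1 libraries and could be tested only through the control libraries, where it was higher. CTSE likewise could be tested only through the ELAPOR1 libraries, where it was higher.

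**Figure D1:**
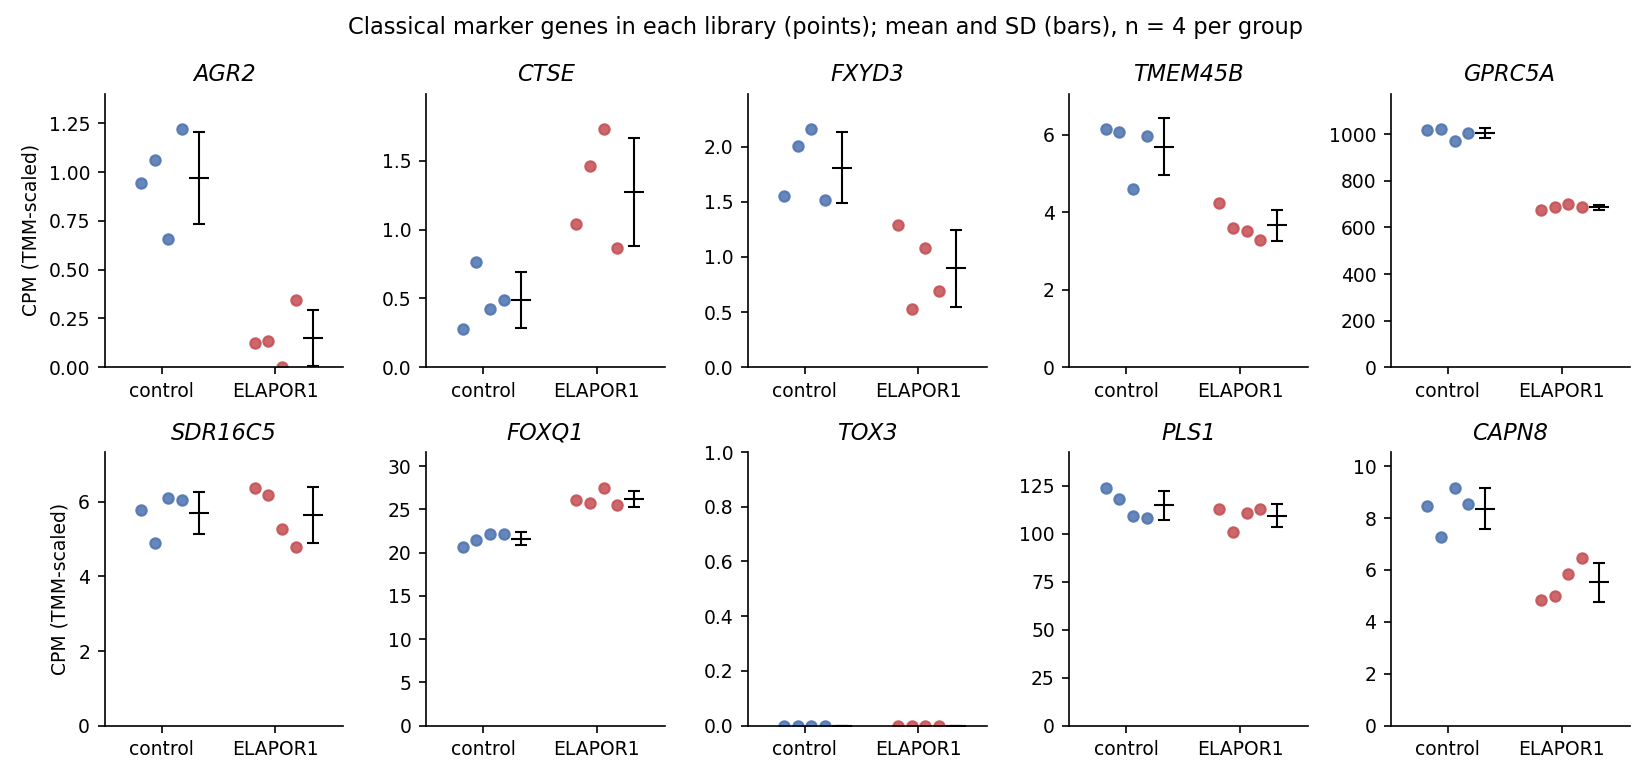
CPM (linear axes from 0) of each of the 10 marker genes in the 4 control (blue) and 4 ELAPOR1 (red) libraries, with the mean and SD as bars. The groups are apart for AGR2, CTSE, FXYD3, TMEM45B, GPRC5A, FOXQ1 and CAPN8, overlap for SDR16C5 and PLS1, and all values of TOX3 are 0.

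Upstream sequence is shown for a pair of members that fell (FXYD3, CAPN8) and the pair that rose (CTSE, FOXQ1). Each line is 200 bases, from 250 to 51 bases before the start site given by RefSeq on GRCh38.p14, read 5′ to 3′ on the gene's strand. These are chr19:35117750-35117949 (plus strand) for FXYD3, chr1:223665752-223665951 (minus) for CAPN8, chr1:206023946-206024145 (minus) for CTSE and chr6:1311848-1312047 (plus) for FOXQ1. The FXYD3 window precedes its RefSeq start site but lies inside the gene as annotated in GENCODE (35115879 to 35124324). It is therefore not upstream of the whole annotated gene. Capitals mark any match to the motifs named in the next paragraph.
FXYD3: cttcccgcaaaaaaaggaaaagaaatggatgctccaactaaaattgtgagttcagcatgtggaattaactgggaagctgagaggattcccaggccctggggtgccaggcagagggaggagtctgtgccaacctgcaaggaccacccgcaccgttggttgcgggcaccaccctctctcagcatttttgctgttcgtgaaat
CAPN8: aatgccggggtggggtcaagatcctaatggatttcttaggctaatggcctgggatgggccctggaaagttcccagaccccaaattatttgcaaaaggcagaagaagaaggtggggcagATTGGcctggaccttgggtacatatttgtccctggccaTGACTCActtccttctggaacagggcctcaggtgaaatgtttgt
CTSE: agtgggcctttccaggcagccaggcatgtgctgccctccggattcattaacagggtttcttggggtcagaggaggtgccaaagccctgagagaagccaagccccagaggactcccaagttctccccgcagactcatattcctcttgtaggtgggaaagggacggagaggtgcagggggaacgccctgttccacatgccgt
FOXQ1: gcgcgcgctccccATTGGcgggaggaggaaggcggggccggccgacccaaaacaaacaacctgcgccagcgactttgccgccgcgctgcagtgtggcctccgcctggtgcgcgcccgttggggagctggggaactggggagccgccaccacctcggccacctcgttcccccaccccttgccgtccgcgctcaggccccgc

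Windows were found for 6 of the 10 members, these 4 with AGR2 and PLS1. Like that of FXYD3, the AGR2 window (chr7:16805050-16805249, minus strand) lies inside its gene as annotated in GENCODE (16791811 to 16833433). Of its bases, 31 were exonic. TMEM45B, SDR16C5, GPRC5A and TOX3 were not matched. The motifs were searched on both strands, and no matches overlapped. They were chosen after the values were seen. The TATA box TATAAA was in none of the 6 windows and in 7.63% of 35116 windows of all RefSeq promoters. The forkhead core, TGTTTAC or TGTTTGC, was in none (4.94% of all), and the nuclear receptor half-site AGGTCA was in none (9.67%). The CCAAT box CCAAT was on the other strand in CAPN8 and FOXQ1 (27.4% of all windows), the GC box GGGCGG was in PLS1 (35.0%), and the AP-1 site TGACTCA was in CAPN8, from 94 bases before the start (3.23%). GC content was 37.5% for AGR2, 51% for CAPN8, 52.5% for FXYD3, 58.5% for PLS1, 59% for CTSE and 74% for FOXQ1, beside a median of 57.5% over all windows. The letters describe these windows only and no binding was measured.

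AGR2 (ENSG00000106541.12) lies on the minus strand of chromosome 7, from 16791811 to 16833433 in GRCh38 as annotated in GENCODE 29. Its counts were 17, 18, 11 and 20 in control replicates 1 to 4 and 2, 2, 0 and 6 in ELAPOR1 replicates 1 to 4. Every control library lay above every ELAPOR1 library, although all values were low. AGR2 fell from 0.971 ± 0.237 CPM to 0.150 ± 0.144 CPM with ELAPOR1 (SD, n = 4 each), 5.87-fold. On the log2 scale this is -2.55 (SE 0.511, 95% interval -3.59 to -1.51, edgeR adjusted p = 1.0e-04). It was -3.35 without ELAPOR1 replicate 4, the library with 6 counts. The gene passed the filter on low counts through its control libraries alone, since no ELAPOR1 library reached the cutoff of 0.599 CPM. It could therefore be tested only because it was higher in one group.

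CTSE (ENSG00000196188.11; chromosome 1, minus strand, 206009264 to 206023909) went the other way at a similarly low level. Counts were 5, 13, 7 and 8 in control and 17, 22, 24 and 15 in ELAPOR1 libraries. The lowest ELAPOR1 library, at 0.865 CPM, was above the highest control library, at 0.767 CPM. CTSE rose from 0.488 ± 0.206 to 1.28 ± 0.392 CPM (SD, n = 4 each), 2.57-fold (log2 fold change 1.36, SE 0.373, 95% interval 0.60 to 2.12, edgeR adjusted p = 0.00310). It passed the filter through the ELAPOR1 libraries, with 1 control library over the cutoff. In control libraries AGR2 and CTSE overlapped in level per length, at 0.232 to 0.429 and 0.104 to 0.287 CPM per kilobase of merged exons, while in ELAPOR1 libraries CTSE (0.324 to 0.647) lay above AGR2 (0 to 0.122).

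Of the membrane proteins, FXYD3 (ENSG00000089356.18; chromosome 19, plus strand, 35115879 to 35124324) was the least abundant. It had 28, 34, 36 and 25 counts in control and 21, 8, 15 and 12 in ELAPOR1 libraries, with the groups nearest at 1.52 and 1.29 CPM. FXYD3 fell from 1.81 ± 0.320 to 0.898 ± 0.347 CPM (SD, n = 4 each; log2 fold change -1.01, SE 0.301, edgeR adjusted p = 0.00652). In the annotation FXYD3 overlaps AC020907.6 and MIR6887, both listed at 0.

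TMEM45B (ENSG00000151715.7; chromosome 11, plus strand, 129815819 to 129860003) had 111, 103, 77 and 98 counts in control and 69, 54, 49 and 57 in ELAPOR1 libraries. Control replicate 3 was the lowest of its group at 4.61 CPM, still above the highest ELAPOR1 library at 4.24 CPM. TMEM45B fell from 5.71 ± 0.731 to 3.66 ± 0.405 CPM (SD, n = 4 each; log2 fold change -0.64, SE 0.152, edgeR adjusted p = 7.9e-04).

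GPRC5A (ENSG00000013588.8; chromosome 12, plus strand, 12890782 to 12917937) was the most abundant member and the one measured most precisely. Control libraries held 18397, 17327, 16232 and 16490 counts and ELAPOR1 libraries 10969, 10375, 9719 and 11889. In CPM these were 1020, 1022, 973 and 1005 against 673, 690, 700 and 686, tight within each group and far apart between them. GPRC5A fell by 0.55 on the log2 scale (SE 0.0269, 95% interval -0.60 to -0.49, edgeR adjusted p = 7.4e-18), 1.46-fold. The receptor gene alone made up 85.9 to 86.7% of the summed CPM of the 10 members in control and 81.0 to 82.7% in ELAPOR1 libraries, so that sum (1127 to 1188 CPM in control, 831 to 855 in ELAPOR1) describes GPRC5A and little else.

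SDR16C5 (ENSG00000170786.12; chromosome 8, minus strand, 56300010 to 56320776) had 104, 83, 102 and 99 counts in control and 104, 93, 73 and 83 in ELAPOR1 libraries. The groups overlapped fully, at 4.90 to 6.11 and 4.79 to 6.38 CPM. The log2 difference of SDR16C5 was -0.013 (SE 0.137; edgeR adjusted p = 0.950), with a 95% interval of -0.29 to 0.27, so a change of up to 1.20-fold upward or to 0.816 of the control level remained compatible with the counts.

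FOXQ1 (ENSG00000164379.7; chromosome 6, plus strand, 1312440 to 1314748) rose in ELAPOR1 libraries. Its levels were 20.6, 21.5, 22.2 and 22.2 CPM in control and 26.1, 25.7, 27.5 and 25.5 CPM in ELAPOR1 libraries, without overlap. On the log2 scale FOXQ1 differed by 0.28 (SE 0.0663; edgeR, adjusted p = 8.7e-04), or 1.21-fold. The other nuclear member, TOX3 (ENSG00000103460.17; chromosome 16, minus strand, 52438005 to 52547802), had 0 counts in each of the 8 libraries. Counting error alone allows up to 3 counts in a single library, which is 0.166 to 0.216 CPM, so a level under that limit could be missed in any one library. Since every library of each group was at 0, the limit for a whole group is lower, and it was not calculated.

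PLS1 (ENSG00000120756.13; chromosome 3, plus strand, 142596387 to 142713664) stood at 124, 118, 109 and 108 CPM in control and 113, 101, 111 and 113 CPM in ELAPOR1 libraries, with overlapping ranges. The log2 difference of PLS1 was -0.067 (SE 0.0442; edgeR adjusted p = 0.229), and its 95% interval of -0.16 to 0.023 holds no change as large as those of the called members. Its antisense partner PLS1-AS1 was listed at 0. CAPN8 (ENSG00000203697.11; chromosome 1, minus strand, 223538007 to 223665734) had 153, 123, 153 and 140 counts in control and 79, 75, 81 and 112 in ELAPOR1 libraries. Even its lowest control library (7.26 CPM) was above its highest ELAPOR1 library (6.46 CPM). CAPN8 fell from 8.36 ± 0.799 to 5.53 ± 0.755 CPM (SD, n = 4 each; log2 fold change -0.59, SE 0.127, edgeR adjusted p = 2.4e-04).

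**Figure D2:**
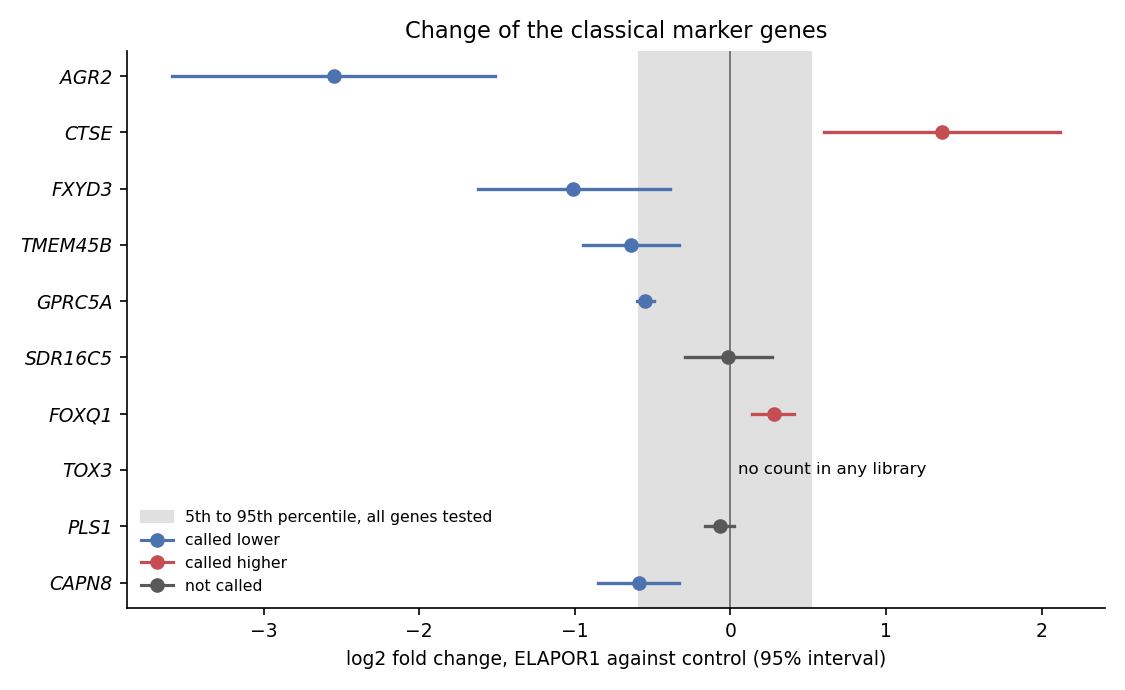
Log2 fold change of each marker gene, ELAPOR1 against control (point), with its 95% interval (line) and, in grey, the range from the 5th to the 95th percentile of all genes tested (-0.59 to 0.52). AGR2, FXYD3 and TMEM45B lie below that range, CAPN8 (-0.59) is at its edge and CTSE lies above it. AGR2 and CTSE, which could be tested only through the group where each was higher, have the widest intervals. GPRC5A has the narrowest interval, and those of SDR16C5 and PLS1 cross 0.

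Compared per length, in CPM per kilobase of merged exons, the members spanned almost the whole range of expression in these cells. Percentiles are among all genes tested, by the mean over the 8 libraries, and values are control means (SD, n = 4). GPRC5A (119 ± 2.70) was at the 97.7th percentile, PLS1 (21.7 ± 1.44) at the 84.1st and FOXQ1 (9.36 ± 0.331) at the 68.6th. TMEM45B (1.88 ± 0.241), SDR16C5 (1.74 ± 0.170) and CAPN8 (1.61 ± 0.154) followed, and in control libraries neighbours among these 3 overlapped. In ELAPOR1 libraries SDR16C5 (1.46 to 1.95) lay above both TMEM45B (1.09 to 1.40) and CAPN8 (0.934 to 1.24), which overlapped each other. FXYD3 (0.543 ± 0.0960), AGR2 (0.341 ± 0.0832) and CTSE (0.183 ± 0.0770) were at the 8.50th, 3.34th and 6.75th percentiles. In bulk RNA, fewer cells expressing a gene and less RNA per cell cannot be told apart. All counts of the 10 members were whole numbers, which shows no sign of reads divided with other genes. Merged exons overstate the length of genes whose long transcripts are unused, which lowers their value on this scale.

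**Figure D3:**
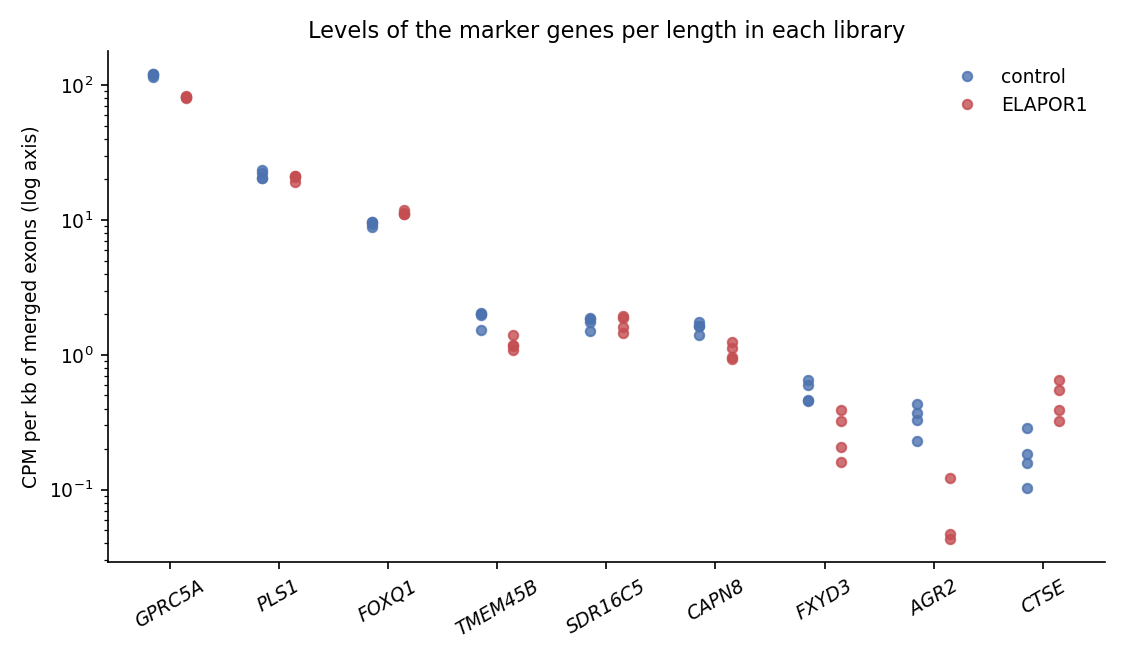
Level of each detected marker gene in CPM per kilobase of merged exons (log axis) in the 4 control (blue) and 4 ELAPOR1 (red) libraries, ordered by the control mean. GPRC5A, PLS1 and FOXQ1 stand above the rest, and AGR2 and CTSE overlap in control and are apart in ELAPOR1 libraries; the ELAPOR1 library in which AGR2 was 0 has no point.

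Genes of the same families were examined beside the members. Of 35 genes related by sequence, 19 were tested and 12 called, 5 higher and 7 lower (median log2 fold change 0.012, against 8.7e-04 over all genes tested). The share called was 63.2%, beside 44.7% of all genes tested. The 3 largest rises were those of LCP1 (plastin 2; 21.5 ± 1.67 to 36.8 ± 1.39 CPM, log2 fold change 0.77, edgeR adjusted p = 7.4e-12), GPRC5B (0.42, adjusted p = 7.7e-04) and FOXD1 (0.33, adjusted p = 1.3e-05). The 3 largest falls were those of TOX2 (0.911 ± 0.205 to 0.435 ± 0.171 CPM, -1.06, edgeR adjusted p = 0.0285), GPRC5C (-0.54, adjusted p = 0.0442) and the calpain CAPN5 (-0.52, adjusted p = 0.0180). TOX2 had 12 to 19 counts in control and 4 to 9 in ELAPOR1 libraries and, like AGR2, passed the filter on low counts through the control libraries, where it was higher. TOX4, a widely expressed relative of TOX3, rose from 101 ± 4.61 to 110 ± 2.01 CPM (0.13, adjusted p = 0.00715).

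Within families, calls went in both directions. PLS3 (plastin 3) stood at 227 ± 5.99 and 237 ± 2.04 CPM (SD, n = 4 each) and was not called (0.060, edgeR adjusted p = 0.112), like PLS1. GPRC5A and GPRC5C fell and GPRC5B rose. FXYD5, 30.4 kb from FXYD3, fell (-0.19, edgeR adjusted p = 1.8e-04), and TMEM45A (1.56 ± 0.358 to 1.23 ± 0.464 CPM) was not called. CTSD, the abundant lysosomal aspartic protease, fell (-0.20, adjusted p = 2.9e-05) while CTSE rose. AGR3, the close copy of AGR2, had 0 counts in all 8 libraries, and the more distant TXNDC12 fell by 0.12 on the log2 scale (adjusted p = 0.0228).

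Among the calpains, CAPN8 and CAPN2 are neighbours on chromosome 1, 35.9 kb apart, and changed in opposite directions. CAPN2, a subunit of the widely expressed m-calpain, rose from 522 ± 8.33 to 622 ± 6.21 CPM (SD, n = 4 each; 0.25, edgeR adjusted p = 1.4e-09), and the shared small subunit CAPNS1 rose by 0.12 (adjusted p = 0.00104). CAPN5 and CAPN10 (-0.20, adjusted p = 0.00707) fell, and CAPN1, CAPN7 and CAPN15 were not called. The log2 ratio of CAPN8 to CAPN2 counts, which needs no scaling between libraries, was -5.96 ± 0.138 without and -6.81 ± 0.201 with the transgene (SD, n = 4 each). These differ by -0.85 (two-sided exact permutation p = 0.0286, which is the lowest possible for groups of 4). It was 1 of 8 such ratios of a member to a relative, chosen after the values were seen, and its p adjusted over the 8 was 0.0762. The ratios of CTSE to CTSD (difference 1.52) and of AGR2 to TXNDC12 (-2.36) had the same exact permutation p and adjusted p. AGR2 and CTSE could be tested only through the group where each was higher, so their ratios are no separate support. With 0 to 6 counts of AGR2 in ELAPOR1 libraries, the 1 count added weighs on its ratio. No ratio passed 0.05 after adjustment. With groups of 4, a single ratio among 8 could not pass on its own, whatever its difference, so no conclusion is drawn from that.

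**Figure D4:**
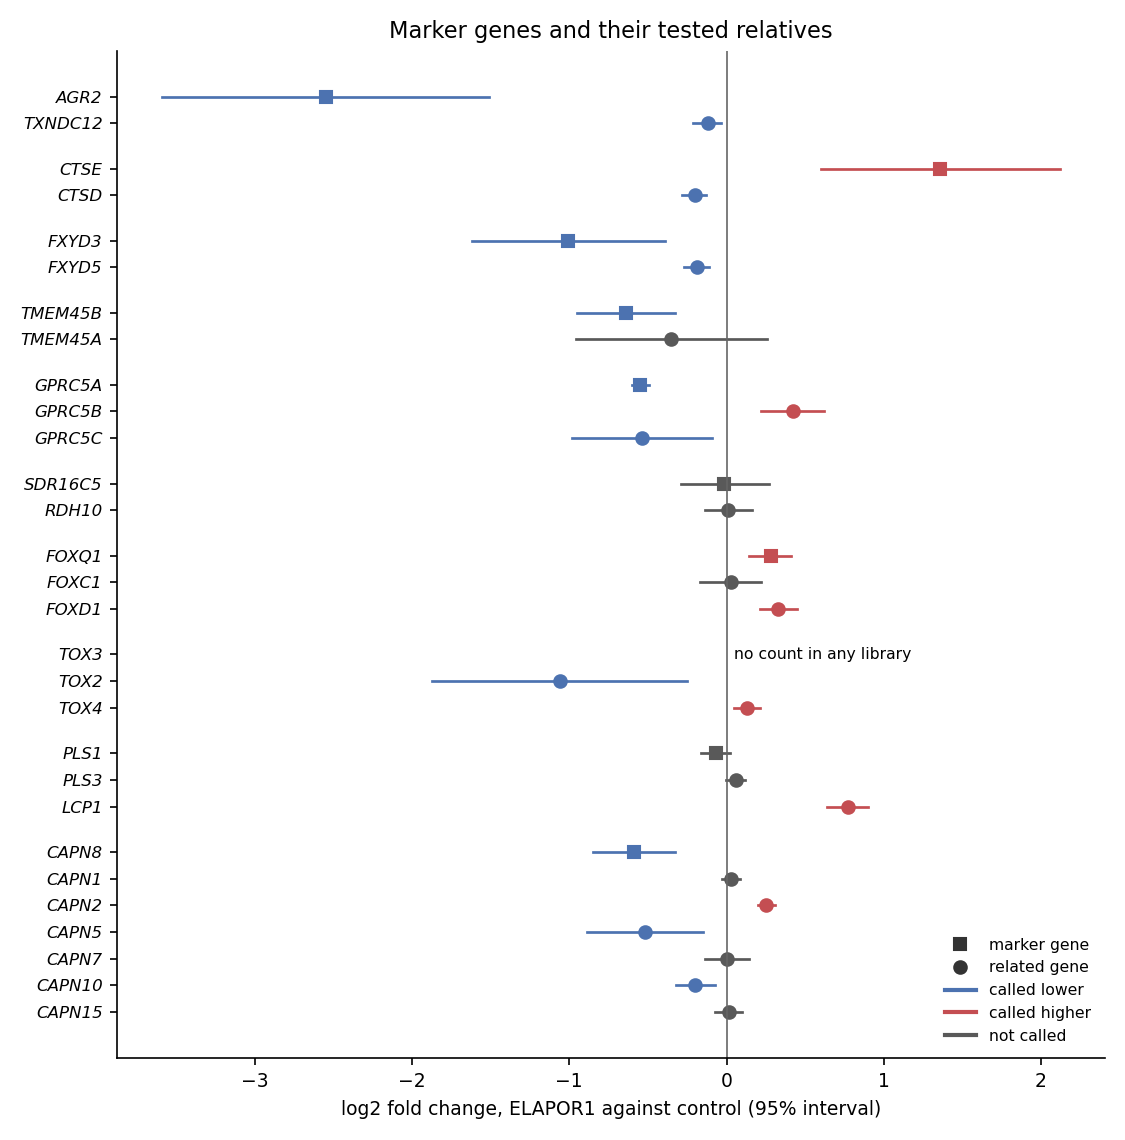
Log2 fold change, ELAPOR1 against control, with 95% intervals, of the marker genes (squares) and their tested relatives (circles), coloured by call. CAPN8 and CAPN2, GPRC5A and GPRC5B, and CTSE and CTSD lie on opposite sides of 0.

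Genes known to act with the members were examined next. Of 13 such partners, 9 were tested and 4 called, 3 higher and 1 lower (median log2 fold change 0.036). That is 44.4%, near the 44.7% called over all genes tested. EZR (ezrin), which links microvillar actin to the membrane, rose from 588 ± 15.4 to 662 ± 12.4 CPM (SD, n = 4 each; 0.17, edgeR adjusted p = 4.6e-06). The calpain subunit CAPNS1 rose by the 0.12 given above, and ATP1B3 rose by 0.10 (70.8 ± 2.31 to 76.1 ± 2.14 CPM, adjusted p = 0.0454), with overlapping groups. VIL1 (villin), which bundles actin beside PLS1, fell by 0.88 (1.43 ± 0.571 to 0.786 ± 0.282 CPM, adjusted p = 0.0373), again with overlapping groups. The other tested partners, ATP1B1 (0.028, adjusted p = 0.551), the calpain inhibitor CAST (0.036, adjusted p = 0.287), the actin bundler ESPN (-0.40, adjusted p = 0.252), LYPD3 (0.26, adjusted p = 0.486) and DAG1 (-0.016, adjusted p = 0.756), were not called.

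Retinoid handling was examined because GPRC5A responds to retinoic acid and SDR16C5 oxidizes retinol. Of 20 genes, 11 were tested and 7 called, 3 higher and 4 lower (median log2 fold change -0.037). Those called were 63.6% of the tested ones, beside 44.7% over all genes tested. CYP26B1, which degrades retinoic acid, rose from 2.88 ± 0.237 to 5.65 ± 0.611 CPM (SD, n = 4 each; 0.97, edgeR adjusted p = 5.5e-06), LRAT, which esterifies retinol, rose by 0.67 (adjusted p = 0.00536) and the binding protein gene CRABP2 by 0.35 (adjusted p = 2.3e-08). DHRS3, a retinaldehyde reductase, fell from 14.5 ± 1.77 to 8.97 ± 0.752 CPM (-0.69, adjusted p = 7.4e-07), and the receptors RARG (-0.37, adjusted p = 1.5e-08) and RXRB (-0.24, adjusted p = 9.1e-05) fell. RDH10, related to SDR16C5, was not called (0.012, adjusted p = 0.913).

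Most of the other classical subtype genes examined had too few counts to be tested. Of 29, 3 were tested, 26 had at most 10 counts in every library and 11 had none. ERBB3 fell from 191 ± 8.53 to 152 ± 8.04 CPM (SD, n = 4 each; -0.33, edgeR adjusted p = 1.2e-08), ELF3 also fell (-0.63, adjusted p = 7.4e-13) and the membrane mucin MUC13 was not called (11.6 ± 0.259 and 11.4 ± 1.16 CPM, adjusted p = 0.918). Of 15 genes of mucins and mucous secretion, 6 were tested and 5 called, all lower (median log2 fold change -0.62), where 44.7% of all genes tested were called and 22.1% were lower. They included LCN2, a lipocalin gene rather than a mucin gene (-1.38, edgeR adjusted p = 6.4e-20). The others were MUC20 (117 ± 8.29 to 52.3 ± 5.12 CPM, -1.16, adjusted p = 1.5e-11), MUC4 (236 ± 6.02 to 141 ± 6.40 CPM, -0.74, adjusted p = 2.1e-18), MUC16 (-0.51, adjusted p = 1.2e-04) and MUC1 (-0.22, adjusted p = 4.4e-04). Counts of MUC20 were in part fractions, shared with similar sequence, and its value is uncertain. The same holds, in part, for ELF3, CTSD, TXNDC12, CAPN10, CLDN7, KRT18 and CD68, which also had counts that were not whole. The gel-forming mucins MUC2, MUC5AC and MUC5B had 0 to 2 counts in any library.

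General epithelial markers did not move one way. Of 10, 8 were called (80%, beside 44.7% of all genes tested), 4 higher and 4 lower (median log2 fold change 0.022). SOX9 (0.41, edgeR adjusted p = 2.4e-09), KRT7 (0.31, adjusted p = 6.5e-11) and KRT19 (0.25, adjusted p = 3.4e-07) rose, and the claudins CLDN7 (-0.50, adjusted p = 8.0e-14) and CLDN4 (-0.40, adjusted p = 1.7e-12) and the keratin KRT18 (-0.36, adjusted p = 2.2e-12) fell. EPCAM was not called (-0.025, adjusted p = 0.491).

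**Figure D5:**
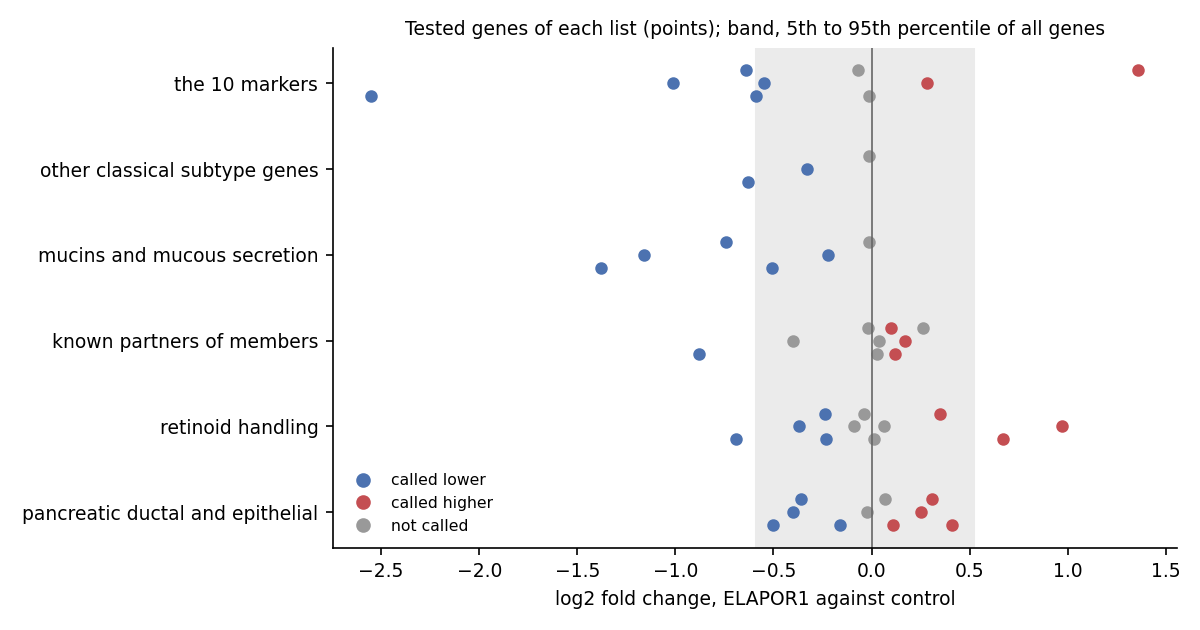
Log2 fold change, ELAPOR1 against control, of every tested gene of the marker group and of 5 lists around it, coloured by call, with the 5th to 95th percentile of all genes tested as a grey band. All called genes of the list of mucins and mucous secretion (5 of 6 tested, LCN2 among them) and of the other classical list (only 2 of 3 tested) lie below 0. The partner, retinoid and epithelial lists have called genes on both sides.

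Genes beside the members, chosen for display after the values were seen, were called in either direction or not at all. The nearest tested genes on either side of GPRC5A were RPL13AP20, which fell (-0.61, edgeR adjusted p = 0.00143), and GPRC5D-AS1, which was not called (-0.26, adjusted p = 0.362). Beside AGR2, TSPAN13, 7.28 kb away, fell by 0.26 (adjusted p = 0.00131) and AHR was not called (0.14, adjusted p = 0.165). TMEM45B had the rising BARX2 on one side (0.74, adjusted p = 3.3e-04) and NFRKB, not called, 3.63 kb away on the other. FOXQ1 stood between EXOC2 and FOXC1, neither of which was called. PLS1 lay between ATR, which rose by 0.17 (adjusted p = 0.00234), and TRPC1, which fell by 0.51 (adjusted p = 0.00381).

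The genes whose levels followed each member most nearly over the 8 libraries were taken as those with the lowest root mean square difference of centred log2 values, among tested genes averaging 5 CPM or more. For GPRC5A they were SQLE (difference 0.0286), FSTL1 (0.0365) and PLK2 (0.0366). For FOXQ1 they were RAB5C (0.0218), PRMT7 (0.0276) and AC087289.1 (0.0296), and for PLS1 ZNF148 (0.0229), HECTD2 (0.0321) and TTC17 (0.0346). TMEM45B was nearest to LINC00707 (0.0521), MBTD1 (0.0990) and KRT15 (0.0991), CAPN8 to AC068888.1 (0.0833), NLGN2 (0.0908) and PCMTD1 (0.0966), and SDR16C5 to BIN1 (0.0650), SNHG15 (0.0663) and TAF1B (0.0733). The members with few counts had less near matches: CCND2 (0.207), PDZK1IP1 (0.207) and PKD1L2 (0.212) for AGR2, VGLL1 (0.186), PPARA (0.189) and DNPH1 (0.20) for FXYD3, and EIF3CL (0.198), CDKN1A (0.222) and OGFRP1 (0.225) for CTSE. With 2 groups, any gene that changed by a like amount on this scale scores as near. The 0.5 CPM added before taking logs shrinks the changes of members with few counts. The matches of AGR2 (log2 fold change -2.55) changed by -1.32, -1.20 and -1.22, and those of CTSE (1.36) by 0.52, 0.80 and 0.54.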

How the data were processed

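The authors deposited 1 table of estimated counts (expected counts) per gene with a column for each of the 8 libraries. The submitters' processing notes name cutadapt, STAR, RSEM, DESeq2 and the build hg38, without roles or versions; which annotation was used, and whether counting used strand, is not given in the sources used here. Of the nonzero values, 15.0% were not whole.

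Counts were rounded. The main test was that of edgeR 4.0.16 (R 4.3.3; filterByExpr, TMM, robust glmQLFit and glmQLFTest, two-sided, no covariate), with Benjamini-Hochberg adjustment over 13860 genes. The filter asked for 0.599 CPM in 4 libraries. The standard error was the size of the log2 fold change over the square root of F. The procedure was also run on simulated counts with the same dispersion for every gene and few changed genes. That setting differs from these data, so the run does not bear on members with few counts. Of the identifiers, 58597 were found in GENCODE 29 (GRCh38), which gave positions and exon lengths. Centred log2 values added 0.5 CPM, and count ratios added 1 count. Promoters were from RefSeq. The count ratios were compared by exact permutation tests (scipy 1.17.1). Limma 3.58.1 (voom) and DESeq2 1.42.0 served as alternatives. Plots used matplotlib 3.10.9.

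The members and lists were chosen with earlier results of these data known. Named were all members, the ELAPOR1 check, the 3 largest called rises and falls of each list, tested relatives and partners, and the 3 genes nearest to each member in pattern. Some genes of these lists were left out and are not reported here, and the counts of each list are over the genes kept.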

Additional observations from a re-analysis of the deposited data

Results flagged for a closer look

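Among the control values of TMEM45B, replicate 3 stood apart at 4.61 CPM, with the rest at 5.97 to 6.15 CPM. The gap was 0.884 of the range of the group, past Dixon's 95% critical value for 4 values. Chance passes this limit in about 1 of 20 groups, and 22 groups of 4 were examined. Without that library the log2 fold change of TMEM45B was -0.73 (edgeR adjusted p = 3.8e-04), in place of -0.64.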

How the results depend on the processing

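With at least 10 counts in every library, 6 members were tested and 4 were called, since AGR2, CTSE and FXYD3 were left out with TOX3. The test against a 1.5-fold change called 1 member, AGR2, and 215 genes (124 higher, 91 lower), in place of 6193. Leaving out each library in turn gave 7 called members each time and 5557 to 6316 called genes. Under the other alternatives (DESeq2 size factors, total count and upper-quartile scaling, the DESeq2 Wald test, limma-voom, a filter of at least 1 count over all libraries, the stricter threshold of 0.01 and the table without ELAPOR1), 7 members were called. The log2 fold change of SDR16C5, which was never called, was 0.0079 with total count scaling and -0.079 to 0.064 over all alternatives, among them 0.015 to 0.064 for the 4 omitted libraries that turned its sign. The replicate numbers were the only possible pairing, and same-numbered libraries did not deviate together (r from -0.0235 to 0.0356 across genes, each deviation taken from its group mean); with the number as a replicate block, 7 members and 5926 genes were called. AGR2 (-3.35 to -2.20) and CTSE (1.16 to 1.66) moved most with single libraries, and their few counts limit the precision of both, as do those of FXYD3 (-1.24 to -0.83).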

Other observations

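Some genes of mucous secretion had too few counts for the test and are given as counts, chosen after their values were seen. PIGR, the receptor that carries polymeric immunoglobulins across epithelium, had 7, 11, 12 and 13 counts in control and 3, 2, 5 and 2 in ELAPOR1 libraries. MUC6, a gastric mucin gene, had 7, 4, 6 and 3 counts in control and 0, 1, 1 and 0 in ELAPOR1 libraries. CREB3L1, a transcription factor of the secretory pathway, had 0, 2, 0 and 0 counts in control and 5, 6, 5 and 6 in ELAPOR1 libraries.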
